A study of Mus musculus with 12 samples.

Results

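The epidermal growth factor family and its receptors were followed in mouse kidney through 10 genes out of 19938 measured. They were listed by name. The 6 ligand genes are Hbegf, Ereg, Egf, Tgfa, Btc and Epgn, and the 4 receptor genes are Egfr, Erbb2, Erbb3 and Erbb4. Each had exactly 1 probe set with a single gene symbol, so every value below comes from that probe set. Total kidney RNA of female mice was hybridised to 12 whole-transcript arrays, 4 in each of 3 groups. WT mice (strain label C57BL/6) received 500 ng per g body weight of recombinant FGF23. KL null mice (strain label 129/SvEv/C57BL/6) received 100 µl of saline vehicle, and so did the WT mice that served as controls. All injections went into the peritoneum, the animals were killed 1 hour later, and the mice had been on standard diet for 5 to 8 weeks. Injection of recombinant HBEGF, the product of Hbegf, is also named in the protocol and was not analysed here. Genotype and strain label go together, so they cannot be told apart, although the protocol speaks of littermates. How the KL allele was made is not given in the sources used here.

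ERBB receptors are receptor tyrosine kinases that pair with one another when a ligand binds and pass the signal to the ERK and phosphatidylinositol kinase pathways. Their ligands are made as membrane-anchored precursors, and metalloproteases of the ADAM family cut them free. HB-EGF, TGF-alpha, betacellulin, epiregulin, epigen and EGF itself all bind the EGF receptor, and HB-EGF, betacellulin and epiregulin also bind ERBB4. In kidney, EGF is made mainly by cells of the thick ascending limb and by those of the distal convoluted tubule, and in the distal convoluted tubule it acts on magnesium transport. FGF23 is a bone hormone that acts on the kidney through FGF receptors and klotho, the product of Kl, and ERK is one of its signalling routes.

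Values are log2 RMA signals, and a difference of 1 is a doubling of signal. Folds are 2 to the power of the difference. Errors of a group are standard deviations over 4 arrays. Adjusted p-values come from limma, two-sided, with Benjamini-Hochberg adjustment over all 19938 genes, and a gene was called below 0.05. The 95% intervals are those of the same limma fit for 1 gene at a time, not adjusted. Signals of different probe sets are not comparable as amounts. Array spread, taken as the SD of log2 values over all probe sets, lay between 2.23 and 2.28 on 8 arrays. It was lower on WT FGF23 replicates 1 and 2 (both 2.17) and on KL null replicates 1 and 2 (2.19 and 2.22). Kl itself was at 9.66 to 9.80 on the KL null arrays, against 10.45 to 10.74 on the WT vehicle arrays, a difference of -0.89 (adjusted p = 1.75e-05). The part of Kl that the probe set covers is not known here. Markers of the proximal tubule, of the distal convoluted tubule and of the thick ascending limb were present at high signal in every group. Their means over the listed genes lay between 9.04 and 11.99 on single arrays, and those of collecting duct markers between 8.82 and 9.07.

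The comparison of WT FGF23 with WT vehicle mice addresses which family members differ 1 hour after the hormone. Hbegf, the gene of heparin-binding EGF-like growth factor, rose 3.10-fold. It was at 8.29, 8.79, 9.41 and 9.25 in WT FGF23 replicates 1 to 4, against 7.48, 7.23, 7.41 and 7.10 in WT vehicle replicates 1 to 4. Every FGF23 array lay above every vehicle array, and the FGF23 arrays were spread more widely among themselves. The means were 8.93 ± 0.50 with FGF23 and 7.30 ± 0.17 with vehicle (SD, n = 4 each). The log2 difference was 1.63 (SE 0.188, 95% interval 1.23 to 2.03, limma adjusted p = 0.00153). The fit takes 1 spread for all 3 groups, so SE, interval and p do not allow for the wider FGF23 spread. An exact two-sided permutation test over the arrays gave p = 0.0286, the smallest that 4 against 4 arrays allow. By fold Hbegf was the third largest increase of all genes, and by p-value it was in place 4. No other member was called, so 1 of 10 rose, 0 fell and 9 did not pass. Over all genes 0.0853% were called in this comparison, 0.0802% higher and 0.00502% lower.

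The increase of Hbegf was least on the 2 FGF23 arrays with the lowest spread of log2 values, replicates 1 and 2. Without both of them the log2 difference was 2.02, and with array spread as a covariate it was also 2.02 (adjusted p = 7.68e-06 and 2.02e-05). Since these arrays hold the lowest Hbegf values of the group, leaving them out had to raise the difference. Only 2 FGF23 arrays then remain. Each of the 12 arrays was also left out in turn, and the difference then lay between 1.47 and 1.84 with an adjusted p of at most 0.0104. Of 24 alternatives of the fit the call was lost in 1, the model without moderation of the variances (adjusted p = 0.137). Bulk kidney RNA does not separate more Hbegf per cell from more cells that express it. None of the 57 cell type markers in 12 lists passed in this comparison, and 7 had an unadjusted p below 0.05, where 15.4% of all genes had one. On single arrays the macrophage markers had mean log2 values of 6.40 to 7.00 with FGF23 and 6.69 to 7.16 with vehicle. The endothelial means were 8.96 to 9.32 with FGF23 and 9.09 to 9.23 with vehicle. The 7 markers were Lyz2 of macrophages (difference -0.60), Calb1 of the distal convoluted tubule (-0.44), Slc26a4 and Scnn1g of the collecting duct (-0.26 and -0.22), Cyp11b1 and Chga of the adrenal gland (0.50 and 0.33) and Plin1 of adipocytes (0.39), with adjusted p-values of 0.241 to 0.307.

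**Figure D1:**
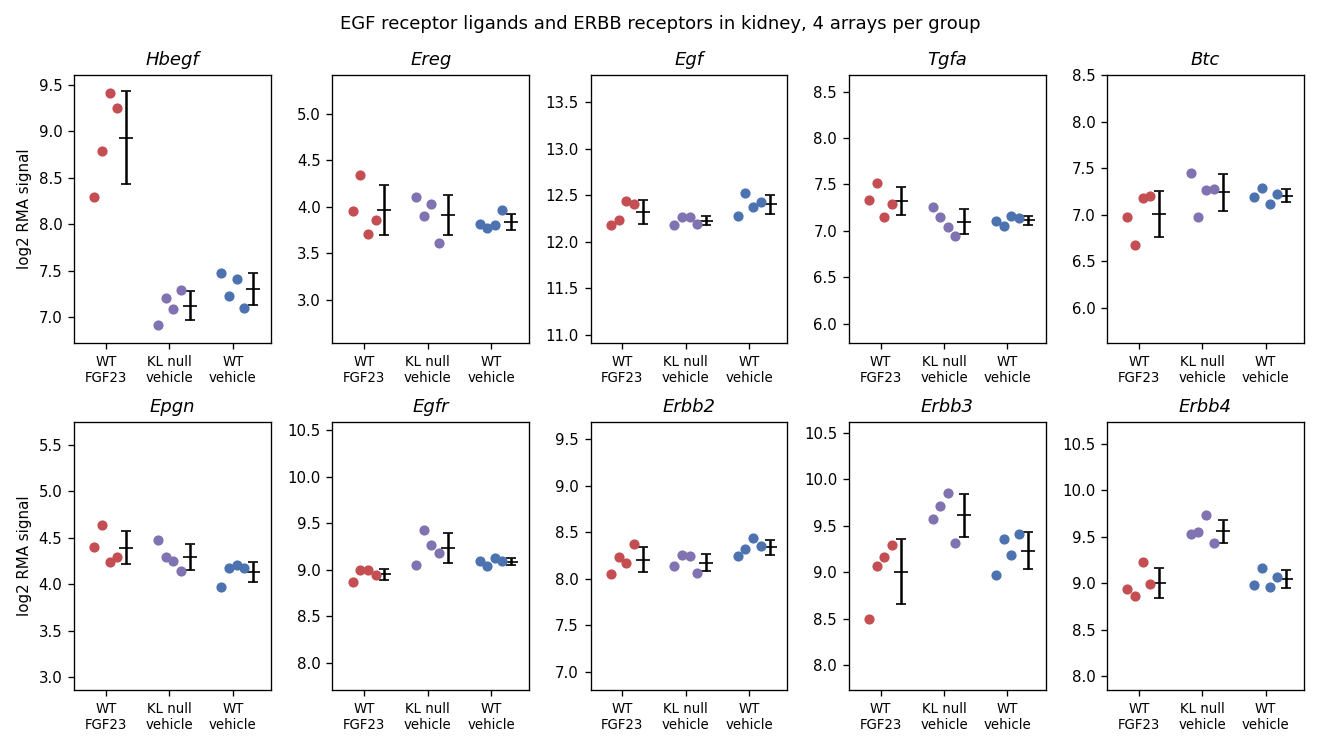
Log2 RMA signal of the 10 genes on each array, with WT FGF23 on the left, KL null in the middle and WT vehicle on the right of each panel. Points are single arrays in the order of their replicate numbers, bars are mean ± SD over 4 arrays, and every panel spans the same number of log2 units. Hbegf lies between 8.29 and 9.41 with FGF23, above all other arrays, and Erbb4 lies between 9.43 and 9.73 in KL null, above all other arrays.

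None of the other 5 ligand genes passed after FGF23. Epgn, the gene of epigen, was at 4.40, 4.64, 4.24 and 4.29 with FGF23, against 3.97, 4.17, 4.21 and 4.18 with vehicle. The groups did not overlap, but the difference of 0.26 did not pass (95% interval 0.04 to 0.48, limma adjusted p = 0.282). Tgfa, the gene of TGF-alpha, was at 7.33, 7.52, 7.15 and 7.29 with FGF23, against 7.11, 7.05, 7.16 and 7.14 with vehicle. The lowest FGF23 array lay just inside the vehicle range (difference 0.21, adjusted p = 0.307). For both genes the highest FGF23 array was replicate 2, one of the low-spread arrays. With array spread as a covariate the differences were 0.08 for Epgn and 0.07 for Tgfa, and without FGF23 replicates 1 and 2 they were 0.13 and 0.10.

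Egf, the gene of the founding ligand and one of the brightest probe sets of the array, was at 12.18, 12.23, 12.44 and 12.41 with FGF23. Its vehicle arrays were at 12.28, 12.52, 12.37 and 12.43, so the groups overlapped (difference -0.09, adjusted p = 0.621). Its 95% interval allowed at most a 1.20-fold decrease or a 1.07-fold increase. Btc, the gene of betacellulin, was at 6.98, 6.67, 7.18 and 7.20 with FGF23, against 7.19, 7.29, 7.12 and 7.22 with vehicle (difference -0.20, adjusted p = 0.429). The low value of FGF23 replicate 2 widened that group. Ereg, the gene of epiregulin, had 3.95, 4.34, 3.71 and 3.86 with FGF23, against 3.81, 3.77, 3.80 and 3.97 with vehicle (difference 0.13, adjusted p = 0.632). Only 15.4% of probe sets had a lower mean signal than that of Ereg, and 20.4% a lower one than that of Epgn. Small differences of such dim probe sets are hard to measure, and no probe set could be tested against background.

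None of the 4 receptor genes passed after FGF23. Egfr, which encodes the receptor bound by all 6 ligands, was at 8.87, 9.0, 9.0 and 8.94 with FGF23, against 9.09, 9.04, 9.13 and 9.09 with vehicle. Both groups were tight and did not overlap, at a difference of -0.14 (95% interval -0.32 to 0.05, adjusted p = 0.439). Hbegf, Epgn and Egfr were the 3 of 10 members whose FGF23 and vehicle arrays did not overlap, and over all genes the share was 7.01%. Erbb2, the receptor without a ligand of its own, averaged 8.20 ± 0.13 with FGF23 and 8.34 ± 0.08 with vehicle (SD, n = 4 each, adjusted p = 0.451). Erbb3, a receptor with a weak kinase that binds neuregulins, was at 8.50, 9.07, 9.16 and 9.29 with FGF23, against 8.97, 9.36, 9.19 and 9.41 with vehicle. Its difference of -0.23 (adjusted p = 0.483) was -0.06 without FGF23 replicate 1. Erbb4 averaged 9.0 ± 0.16 with FGF23 and 9.04 ± 0.10 with vehicle (adjusted p = 0.853). Over the 9 members that were not called, the intervals reached at most a 1.48-fold decrease (Erbb3) and a 1.39-fold increase (Epgn). The median difference over the 10 members was -0.06, beside 0.04 over all genes.

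The comparison of KL null with WT vehicle mice addresses how the family stands where the labels give a Kl null genotype. Here Erbb4, a receptor for neuregulins and for HB-EGF and betacellulin, rose 1.43-fold. It was at 9.53, 9.55, 9.73 and 9.43 in KL null replicates 1 to 4, against 8.98, 9.17, 8.96 and 9.07 in WT vehicle replicates 1 to 4. All 4 KL null arrays lay above all 8 wild-type arrays, FGF23 arrays included. The means were 9.56 ± 0.12 in KL null and 9.04 ± 0.10 in WT vehicle (SD, n = 4 each). The difference was 0.51 (SE 0.0959, 95% interval 0.31 to 0.72, limma adjusted p = 0.00423, exact permutation p = 0.0286). It passed in all 24 alternatives of the fit, at 0.46 to 0.57 and an adjusted p of at most 0.0195. Erbb4 was the 1 member of 10 that was called, 0 fell and 9 did not pass, where 8.01% of all genes were called, 3.58% higher and 4.44% lower. The share of members called is thus close to that of all genes.

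Erbb3, the partner receptor of the same neuregulin pathway, had 9.57, 9.71, 9.85 and 9.31 in KL null, against 8.97, 9.36, 9.19 and 9.41 in WT vehicle. One KL null array, replicate 4, lay inside the vehicle range. The difference of 0.38 did not pass (95% interval 0.04 to 0.72, adjusted p = 0.182) except with array quality weights (0.47, adjusted p = 0.0451, and up to 0.426 over the alternatives). Egfr was at 9.05, 9.43, 9.27 and 9.18 in KL null, against 9.09, 9.04, 9.13 and 9.09 in WT vehicle (difference 0.14, adjusted p = 0.367). Erbb2 averaged 8.17 ± 0.09 in KL null and 8.34 ± 0.08 in WT vehicle (difference -0.16, adjusted p = 0.296). Erbb2 was the 1 receptor gene of 4 with a negative difference.

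Among the ligands Egf was the only gene besides Erbb4 whose KL null and vehicle arrays did not overlap. It was at 12.18, 12.26, 12.27 and 12.19 in KL null, against 12.28, 12.52, 12.37 and 12.43 in WT vehicle. The difference of -0.18, a 1.13-fold lower signal, did not pass (95% interval -0.35 to 0.00, adjusted p = 0.249). Egf and Erbb4 make 2 of 10 members without overlap, beside 13.8% of all genes. Hbegf was at 6.92, 7.21, 7.09 and 7.29 in KL null, against 7.48, 7.23, 7.41 and 7.10 in WT vehicle. The ranges overlapped and the difference of -0.18 did not pass (95% interval -0.58 to 0.22, adjusted p = 0.67). Epgn averaged 4.29 ± 0.14 in KL null and 4.13 ± 0.11 in WT vehicle (adjusted p = 0.429). The differences of Ereg, Btc and Tgfa were 0.07, 0.04 and -0.01, with adjusted p-values of 0.828, 0.913 and 0.957. The median difference over the 10 members was 0.05, beside 0.02 over all genes.

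Markers of several cell types also differed between KL null and WT vehicle. Of 57 markers in 12 lists 9 rose and 6 fell, beside 3.58% and 4.44% of all genes. Of 9 macrophage markers 6 rose and 1, Csf1r, fell, and their mean log2 value was 6.97 to 7.88 on KL null arrays and 6.69 to 7.16 on vehicle arrays. Of 6 proximal tubule markers 3 fell, with array means of 11.51 to 11.64 in KL null and 11.70 to 11.99 in WT vehicle. In the thick ascending limb list 1 of 4 markers rose, the claudin gene Cldn16 (by 0.42, adjusted p = 0.0211). Umod, Slc12a1 and Ptger3 had differences of 0.06, 0.15 and -0.27 and did not pass. Among 4 distal convoluted tubule markers the magnesium channel gene Trpm6 rose by 0.50 and Slc12a3 fell by 0.32 (adjusted p = 0.00836 and 0.0469). Calb1 and Pvalb, at 0.11 and -0.69, did not pass. The 7 collecting duct markers all had negative differences, and 0 passed (2 at an unadjusted p below 0.05, where 21.3% of all genes had one). Dcn was the 1 of 5 fibroblast and pericyte markers that rose (by 0.85, adjusted p = 0.0152). The other 4 did not pass, with differences of -0.08 (Col1a1 and Col3a1) to 0.44 (Pdgfra). All 4 podocyte markers had negative differences, and 1 fell, Podxl (by 0.37, adjusted p = 0.027). All 6 endothelial markers had negative differences, of which 0 passed (4 at an unadjusted p below 0.05). Whether shifts in cell make-up have a part in the Erbb4 difference was not tested.

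**Figure D2:**
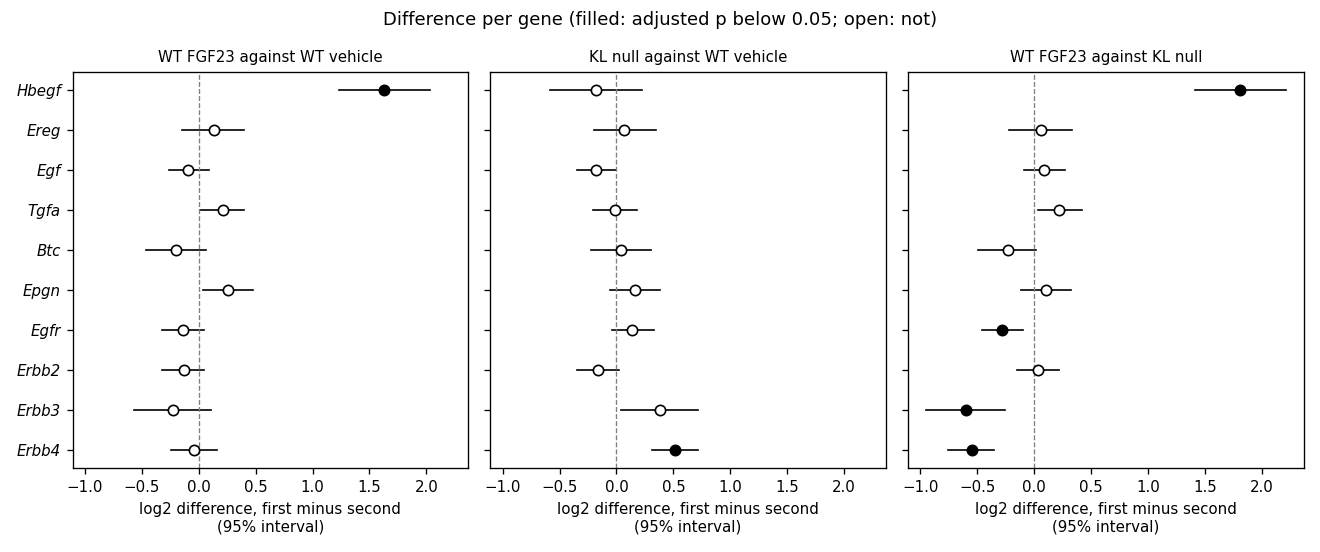
Log2 difference of each gene in the 3 comparisons, as the first group named minus the second, with its 95% interval from limma. Filled points have an adjusted p below 0.05: Hbegf in both comparisons with FGF23 as first group (1.63 and 1.81), Erbb4 in KL null against WT vehicle (0.51), and Egfr, Erbb3 and Erbb4 in WT FGF23 against KL null (-0.28, -0.60 and -0.55).

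Set directly against KL null mice, FGF23-treated wild-type mice differed in 4 of 10 members, 1 higher and 3 lower, where 5.25% of all genes were called higher and 6.72% lower. This comparison holds the hormone and the genotype at once and uses the same arrays as the other 2. Hbegf was 3.50-fold higher with FGF23, at 8.93 ± 0.50 in WT FGF23 and 7.13 ± 0.16 in KL null (SD, n = 4 each, limma adjusted p = 4.92e-05). Erbb4 was 1.47-fold lower, at 9.0 ± 0.16 in WT FGF23 and 9.56 ± 0.12 in KL null (adjusted p = 0.00238). Erbb3 was 1.52-fold lower, at 9.0 ± 0.35 in WT FGF23 and 9.61 ± 0.23 in KL null (adjusted p = 0.0237). Egfr was 1.21-fold lower, at 8.95 ± 0.06 in WT FGF23 and 9.23 ± 0.16 in KL null (adjusted p = 0.0445). In these 4 genes, and in no other member, the WT FGF23 and KL null arrays did not overlap, beside 16.1% of all genes.

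The calls of Hbegf and Erbb4 held in all 24 alternatives of the direct comparison, but those of the other 2 receptors did not. Erbb3 lost its call without WT FGF23 replicate 1 (adjusted p = 0.0561), KL null replicate 2 (0.0619) and KL null replicate 3 (0.0861), and without both low-spread FGF23 arrays its difference was -0.39 (adjusted p = 0.182). Egfr kept its call in only 1 of the 12 fits with an array left out, that without KL null replicate 1, and its adjusted p ran up to 0.124 there. Over all 24 alternatives Erbb3 was called in 18 (adjusted p up to 0.182) and Egfr in 9 (up to 0.195), both with a negative difference throughout. The order of the group means was WT FGF23, WT vehicle, KL null from high to low for Hbegf, with the last 2 not separated by the test. For Erbb4, Erbb3 and Egfr it was KL null, WT vehicle, WT FGF23, and WT vehicle was separated from a neighbour only for Erbb4, where it was below KL null. For the other 6 members no pair of groups was separated by the test.

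The genes around the receptors were read from 4 lists. The neuregulins, further ligands of the EGF family, are the main ligands of ERBB3 and ERBB4, and 4 of them were measured. In KL null 1 of the 4 rose, beside 3.58% of all genes called higher. This was Nrg1, at 6.72 ± 0.27 in KL null and 6.28 ± 0.11 in WT vehicle (SD, n = 4 each, 1.35-fold, limma adjusted p = 0.0384), with overlapping groups. After FGF23 0 of the 4 passed, beside 0.0853% of all genes called. Nrg2 was the 1 with an unadjusted p below 0.05, which 15.4% of all genes had (difference 0.25, adjusted p = 0.309). After FGF23 the median difference of the 4 was 0.19, beside 0.04 over all genes, and in KL null it was 0.15, beside 0.02. Nrg3 and Nrg4 were dim, with group means of 4.02 to 4.58. Between WT FGF23 and KL null 0 of the 4 passed, where 5.25% of all genes were called higher and 6.72% lower.

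The list of sheddases and their partners held 13 measured genes, and 0 passed after FGF23 (2 at an unadjusted p below 0.05, which 15.4% of all genes had). Adam17, the main protease that releases HB-EGF, was at 8.67 ± 0.08 with FGF23 and 8.78 ± 0.06 with vehicle (SD, n = 4 each, limma adjusted p = 0.507). The 2 genes of small unadjusted p were the iRhoms, which carry ADAM17 to the cell surface. Rhbdf1 had a difference of 0.35 (adjusted p = 0.258) and Rhbdf2 of 0.24 (adjusted p = 0.263). In KL null 1 of the 13 rose and 3 fell, beside 3.58% higher and 4.44% lower over all genes. Timp3, an inhibitor of ADAM17, fell 1.40-fold to 11.78 ± 0.11 in KL null, against 12.27 ± 0.16 in WT vehicle (adjusted p = 0.00771). The protease genes Adam12 (1.5-fold, adjusted p = 0.0102) and Adam15 (1.31-fold, adjusted p = 0.0268) fell as well. Cd9, a tetraspanin that binds the HB-EGF precursor in the membrane, rose 1.29-fold to 9.99 ± 0.18 in KL null, against 9.62 ± 0.11 in WT vehicle (adjusted p = 0.0303). Adam17 did not pass there either (difference 0.02, adjusted p = 0.918). Between WT FGF23 and KL null 4 of the 13 were called higher and 1 lower, beside 5.25% and 6.72% of all genes. Adam12, Adam15, Timp3 and Rhbdf1 were higher with FGF23 (limma adjusted p = 0.00982, 0.0039, 0.0385 and 0.041) and Cd9 was lower (0.007).

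**Figure D3:**
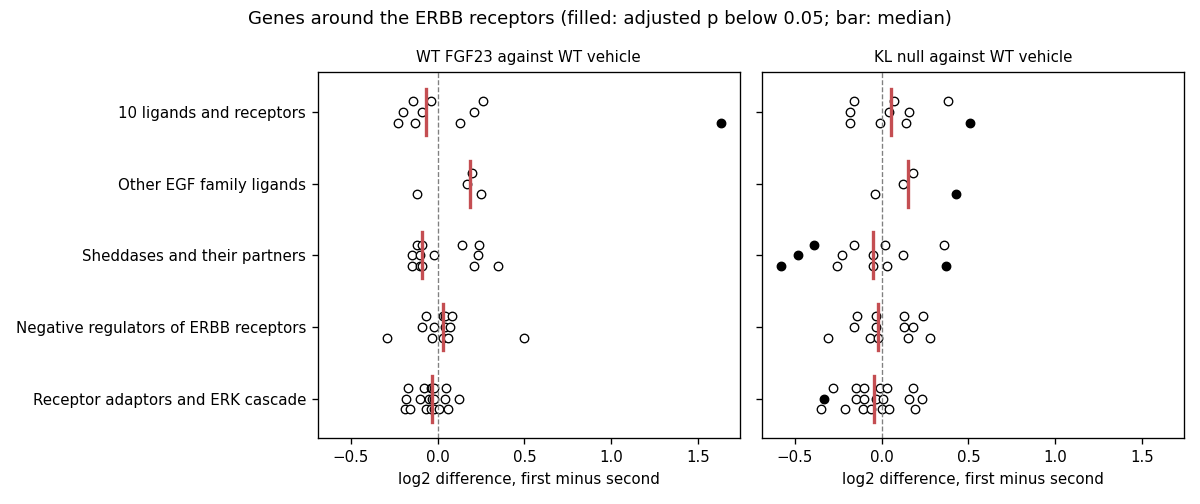
Log2 differences of the 10 ligand and receptor genes and of the 4 lists around them, with WT FGF23 against WT vehicle on the left and KL null against WT vehicle on the right. Each point is a gene, filled points have an adjusted p below 0.05, and the red bar is the median of the list. Hbegf at 1.63 stands alone on the left, and on the right the called genes lie between -0.58 (Adam12) and 0.51 (Erbb4).

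Of 13 genes listed as negative regulators of the receptors 0 passed after FGF23 and 0 passed in KL null. In each comparison 2 had an unadjusted p below 0.05, where 15.4% and 21.3% of all genes had one. Errfi1, an inhibitor of the EGF receptor kinase that is itself induced by EGF, averaged 11.99 ± 0.09 with FGF23 and 11.48 ± 0.12 with vehicle (SD, n = 4 each). The arrays did not overlap, but the difference of 0.50 did not pass (limma adjusted p = 0.241). In KL null it averaged 11.17 ± 0.39, which did not pass against vehicle either (difference -0.31, adjusted p = 0.242). Between WT FGF23 and KL null 1 of the 13 was called higher and 1 lower, beside 5.25% and 6.72% of all genes. Errfi1 was 1.76-fold higher with FGF23 (adjusted p = 0.00311) and Lrig3 1.27-fold lower (adjusted p = 0.0214). The list of receptor adaptors and the ERK cascade had 20 measured genes, and 0 passed after FGF23, with 0 also at an unadjusted p below 0.05. In KL null 1 of them fell, Eps8, an EGF receptor substrate that regulates actin (1.26-fold, adjusted p = 0.0148), and 0 rose, beside 4.44% of all genes called lower and 3.58% higher. Between WT FGF23 and KL null 2 of the 20 were called higher and 1 lower, beside the same 5.25% and 6.72%. The median differences of these 2 lists were 0.03 and -0.04 after FGF23, and -0.02 and -0.04 in KL null.

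The genes most like Hbegf over the 12 arrays, by Pearson's r of the log2 signals, were Bhlhe40 (r = 0.957), Egr1 (0.949), Ier2 (0.941), Sik1 (0.934) and Hes1 (0.93). Bhlhe40, Egr1 and Hes1 encode transcription factors, Ier2 an immediate early protein and Sik1 a salt-inducible kinase. These r values include the step between FGF23 and the other arrays. With group means removed they were 0.744, 0.689, 0.463, 0.781 and 0.895 in the same order. Of these 5 genes Bhlhe40, Egr1 and Ier2 were called after FGF23, and Sik1 and Hes1 were not (adjusted p = 0.234 and 0.208). Since the step with FGF23 entered the choice of the genes, these calls are not separate support. All of the 5 genes but Ier2 had, like Hbegf, their lowest FGF23 value on replicate 1.

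Most like Erbb4 were Scin (r = 0.98), the gene of the actin-severing protein scinderin, Tnfaip3 (0.964), which encodes an inhibitor of NF-kappaB signalling, and Cxadr (0.963), the gene of a tight junction protein. With group means removed r was 0.876, 0.795 and 0.777. All 3 rose in KL null, by 0.47, 0.41 and 0.33 on the log2 scale (limma adjusted p = 0.00547, 0.0104 and 0.0191). They were picked by r values that include the step between KL null and the other arrays, so their rise is not separate support. These correlations over 12 arrays are descriptions, since the genes share the arrays and their spread.

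**Figure D4:**
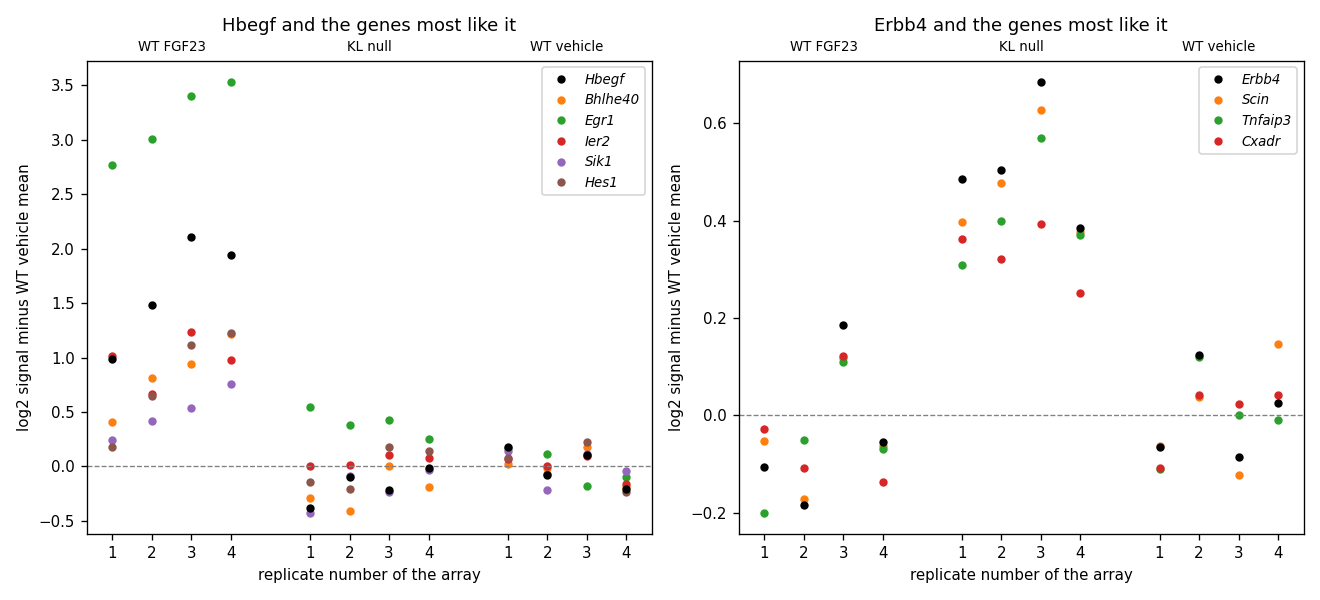
Log2 signal minus the WT vehicle mean on each array, for Hbegf with its 5 most similar genes on the left and Erbb4 with its 3 most similar genes on the right. Arrays are grouped as WT FGF23, KL null and WT vehicle, in the order of their replicate numbers. In the left panel all 6 genes are above their vehicle mean on all 4 FGF23 arrays, and in the right panel all 4 genes are above it on all 4 KL null arrays. The similar genes were picked on these same arrays, so such a shared step follows largely from the choice.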

How the data were processed

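According to the submitters' processing notes, the authors computed the deposited log2 values, 1 per probe set and array, by RMA in Partek 6.2. Background and probe-level settings and a genome build are not given in the sources used here. Folds of dim probe sets are compressed by RMA. Scanner files were not used here. Precision is limited by the number of arrays.

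Of 28853 probe sets, 21789 had 1 gene symbol in the platform annotation, 1621 had several and 5443 none. The Entrez identifiers of 21698 matched RefSeq (GRCm38.p6). The probe set of highest mean stood for each of 19938 genes. One limma 3.58.1 fit (R 4.3.3, lmFit and eBayes) estimated a mean for each of the 3 groups over all 12 arrays (9 residual degrees of freedom). It was also run on simulated data for WT FGF23 against WT vehicle, with 200 changed genes. There 68.7% of log2 differences of 0.5 were called, 100.0% of those of 1.0 and 98.5% of those of 2.0, beside 0.061% of unchanged genes. The simulated noise was independent with 1 spread per gene, so arrays of unequal spread were not covered. Figures were made with Python 3.11.15 and matplotlib 3.10.9.

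The members and lists were chosen with earlier results of these data known. Named were all members, Kl, per list and comparison against WT vehicle the 4 called genes of smallest p at most, and the genes of highest Pearson r with Hbegf (5) and each other called member (3). Other genes named were chosen after their values were seen. Areg and some other genes of the lists were not analysed here. The labels do not say whether each array is a separate mouse, so p-values reflect only sample-to-sample spread, which may be technical. Replicate numbers are shared by the groups: same-numbered arrays had deviations correlated at -0.216 to 0.259, with 7 of 12 pairs over 0.1. For arrays of different numbers it was -0.279 to 0.238, with 12 of 36 pairs over 0.1. The best match in another group had the same number in 8 of 24 cases. Whether the numbers mark shared batches was not tested, and the main fit did not treat same-numbered arrays as pairs. Alternatives covered normalization, centring, weights, moderation, filters, probe set rules, a replicate block and left-out arrays.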

Additional observations from a re-analysis of the deposited data

Results flagged for a closer look

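Epgn on WT vehicle replicate 1 was at 3.97, far below the other 3 vehicle arrays at 4.17 to 4.21, with a gap of 0.833 of the whole range of the group. Without that array the Epgn difference after FGF23 was 0.21, against 0.26 with it, and passed in neither fit (limma adjusted p = 0.492 and 0.282). In all 33 groups of 4 arrays were examined this way (10 members and Kl), 1 was picked out, and chance picks out about 1 in 20.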

How the results depend on the processing

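Among the 10 members, the increase of Hbegf after FGF23 (1.47 to 2.02) and of Erbb4 in KL null (0.46 to 0.57) kept their direction in all 24 alternatives of the fit. Hbegf lost its call without moderation (1.63, adjusted p = 0.137), which left 0 members called after FGF23, and the exact permutation p stood at 0.0286. Leaving out each array in turn kept 1 member called in both comparisons against vehicle and gave 2 to 4 in WT FGF23 against KL null. In KL null 2 members were called with array quality weights. In WT FGF23 against KL null 2 were called with array spread as a covariate and 2 with WT FGF23 replicates 1 and 2 left out.

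The number of all genes called after FGF23, 17, was 9 after a further quantile normalization, 6 with arrays centred on their medians (5 higher and 1 lower, beside 16 and 1), 11 with array spread as a covariate, 2 without moderation and 7 with only the 2 groups compared. It was 5 with all probe sets tested, 8 with WT FGF23 replicates 1 and 2 left out, and 4 to 14 with single arrays left out. In KL null, 1598 became 2852 with array quality weights and 828 to 1728 with single arrays left out, and median centring changed the split of higher and lower calls from 713 and 885 to 428 and 1239. In WT FGF23 against KL null, 2386 became 944 with WT FGF23 replicates 1 and 2 left out and 1218 to 2794 with single arrays left out. With the replicate number as a block 6 genes were called after FGF23, and the Hbegf and Erbb4 calls held (limma adjusted p = 0.00216 and 0.00691). The cause of these changes was not tested.

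Sign changes occurred only among differences that had not been called. After FGF23, Ereg went to -0.09 with the spread covariate and -0.05 without FGF23 replicates 1 and 2, and Egf to 0.03 without them. Erbb4 went to 0.01 after quantile normalization, and with the covariate, to between -0.12 and 0.01 with single arrays left out, and to 0.06 without FGF23 replicates 1 and 2. In KL null, Ereg went to -0.01 with the covariate, Btc to -0.02 with median centring, and with single arrays left out Tgfa lay between -0.07 and 0.04 and Btc between -0.03 and 0.13. In WT FGF23 against KL null, Ereg went to -0.02 after quantile normalization, -0.08 with the covariate, -0.13 without FGF23 replicates 1 and 2, and between -0.07 and 0.14 with single arrays left out. There Epgn went to -0.01 with the covariate and -0.03 without those 2 arrays, and Erbb2 lay between -0.02 and 0.08 with single arrays left out. With the dimmest genes left out Ereg and Epgn had no value.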

Other observations

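In the RefSeq gene table Epgn, Ereg, Areg and Btc follow one another with 0 protein-coding genes between them, and 4 such genes lie between Nrg2 and Hbegf. The 3 measured ligand genes of the first row of neighbours had differences of 0.26 (Epgn), 0.13 (Ereg) and -0.20 (Btc) after FGF23, none of them called. Whether neighbours change together was not tested. Nrg2 differed by 0.25 after FGF23 (limma adjusted p = 0.309), beside 1.63 for its near neighbour Hbegf.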
